A study of Mus musculus with 24 samples.

Results

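The genes described are the longest ones expressed in mouse 32D cells. Their annotated exons run over 200000 bases or more of genome, from the smallest exon start to the largest exon end, and their mean level over the 24 libraries was at least 1 CPM (the count of a gene scaled to a fixed total of gene reads per library). Of 55414 gene rows in the count tables, 12923 reached that level, and 352 of these also reached that span. Of the 352, 3 were not analysed here, which leaves 349 long genes, or 2.70% of the expressed genes. They were set against the 12571 expressed genes of shorter span. Length chose the members and their course did not. The limit on the mean level does use the counts, and the results it can shape are named as such.

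32D is a mouse bone-marrow line that needs interleukin-3 to grow, labelled as lymphoblastocytes. All cells grew in RPMI1640 with 10% FBS and 10 ng/mL mouse IL-3 and received actinomycin D at 0.05 µg/ml. RNA was taken at 0, 3, 6 and 9 h from WT cells and from 2 lines labelled Nat10+/- (KO1 and KO2, with Nat10 deficiency as their genotype), with 2 libraries in each of the 12 groups. NAT10 is the acetyltransferase that places N4-acetylcytidine (ac4C) in RNA, and the study asked how that mark and NAT10 binding bear on mRNA half-life. KO1 and KO2 are each 1 line, so line and genotype cannot be told apart within either. No group was kept for 3 to 9 h without the drug, so drug and time in culture cannot be told apart. The labels speak of biological replicates without naming separate cultures, so the spread that p-values rest on here is between libraries and may be technical.

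Actinomycin D inserts into DNA, preferring the step in which G is followed by C, and blocks RNA polymerases on the template. A very long gene is almost all intron, and a polymerase must cross its whole length before a full mRNA is released. After the drug, the level of such an mRNA depends on any transcription that still starts, on the polymerases already under way and on the lifetime of the finished mRNA. How far transcription stopped at the dose used here was not tested. Long genes encode many transcription co-regulators, kinases and vesicle proteins, and they include genes at common fragile sites.

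Libraries held 15361601 to 17338939 reads assigned to genes, of which 55231 to 368757 fell in the 349 long genes. Of 14 markers of a myeloid progenitor, 10 were at 1 CPM or more in WT at 0 h, and the list summed to 1832 CPM in WT, 1737 for KO1 and 1695 for KO2. At 0 h Kit was at 0 in KO1, and Kit, Mpo and Ctsg were at 0 in KO2. Stromal markers summed to 6.83 CPM in WT at 0 h against 0.319 in KO1 and 0.156 in KO2, macrophage markers to 99.5, 53.0 and 37.7 CPM, erythroid markers to 25.2, 24.99 and 40.4 CPM and lymphoid markers to 23.3, 10.4 and 9.71 CPM. Marker sums also moved with time: in WT they went from 0 h to 9 h from 1832 to 900.0 CPM for the myeloid progenitor, 99.5 to 249 for macrophage, 23.3 to 64.4 for lymphoid, 25.2 to 41.6 for erythroid and 6.83 to 1.25 for stromal markers, and Kit was at 0 in every group but WT at 0 h. The part of these differences in the results below was not tested. Nat10 itself was at 112 ± 1.52 CPM (SD, n = 2) in WT at 0 h, 103 ± 7.62 in KO1 and 97.2 ± 2.87 in KO2. That is 91.99% and 86.7% of WT (adjusted p = 0.0486 and 0.000291 in edgeR's test), so the counts by themselves do not show the loss of an allele, and KO1 and KO2 stand for the lines so labelled. Spike-in RNA took 7.19 CPM in WT at 0 h against 240.4 in KO1 and 333 in KO2, so levels are given relative to gene reads and not per cell. The CPM of a long gene in a library or group uses a total of gene reads adjusted by edgeR's TMM factor. On this relative scale a gene can be higher through new RNA or through being lost less than the other RNAs, and which holds was not tested.

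The DNA that the drug meets at the start of such genes is shown for Fut8 and Arl15, which fell in every genotype, and for Kcnip4 and Hacd1, which rose in every genotype. The sequences are the 250 bases before the annotated start, from the RefSeq promoter records on GRCm38.p6, read 5′ to 3′ on the strand of the gene. Capitals mark each G followed by C, a step that reads the same on both strands. RefSeq lists 4 records for Fut8 and 2 for Kcnip4, and the first is shown.
Fut8: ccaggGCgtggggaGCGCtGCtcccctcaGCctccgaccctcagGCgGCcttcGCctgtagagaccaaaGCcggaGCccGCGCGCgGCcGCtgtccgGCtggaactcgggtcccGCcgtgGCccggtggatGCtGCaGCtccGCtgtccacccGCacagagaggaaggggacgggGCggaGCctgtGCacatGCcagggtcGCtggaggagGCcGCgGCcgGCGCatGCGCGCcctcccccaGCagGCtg
Arl15: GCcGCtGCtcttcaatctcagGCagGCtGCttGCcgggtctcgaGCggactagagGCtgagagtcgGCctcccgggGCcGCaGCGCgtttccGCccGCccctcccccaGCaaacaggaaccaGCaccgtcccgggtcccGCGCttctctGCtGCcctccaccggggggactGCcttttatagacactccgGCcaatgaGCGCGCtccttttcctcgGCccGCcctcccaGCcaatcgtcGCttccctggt
Kcnip4: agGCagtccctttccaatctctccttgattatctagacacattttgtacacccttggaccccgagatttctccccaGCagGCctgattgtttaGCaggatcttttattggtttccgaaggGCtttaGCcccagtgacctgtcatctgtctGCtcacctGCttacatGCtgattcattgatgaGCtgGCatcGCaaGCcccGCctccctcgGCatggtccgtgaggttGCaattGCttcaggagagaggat
Hacd1: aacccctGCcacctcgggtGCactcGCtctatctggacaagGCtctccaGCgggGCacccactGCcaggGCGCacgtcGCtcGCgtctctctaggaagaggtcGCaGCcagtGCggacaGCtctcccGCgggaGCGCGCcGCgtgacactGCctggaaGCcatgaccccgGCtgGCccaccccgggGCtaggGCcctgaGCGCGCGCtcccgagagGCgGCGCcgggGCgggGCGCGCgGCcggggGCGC
The Fut8 sequence holds 38 GC steps, that of Arl15 31, that of Kcnip4 17 and that of Hacd1 40. Over all 32851 records the median was 16 GC steps, with quartiles of 11 and 23, and 99.97% of records held at least 1. Fut8 and Arl15, which fell, and Hacd1, which rose, thus lay above the upper quartile, and Kcnip4 lay near the median. A record was matched for 264 of the 349 long genes (75.6%), too few to describe the set.

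The long genes are long through their introns. Their median span was 277747 bases (200182 to 2244856), and their median longest intron was 77442 bases against 4938 in genes of shorter span. Their exons summed to a median of 9342 bases in 23 separate blocks, against 3872 bases in 8 blocks. Their median level was 16.5 CPM against 31.2 CPM. The longest coding transcript had a median GC content of 48.01% against 50.4%, over 342 long and 10680 shorter genes with a transcript model. By span, 201 members were of 200 to 300 kb, 104 of 300 to 500 kb and 44 of 500 kb or more. Just inside the limit lay Umad1 (200182 bases), which went from a mean of 13.3 CPM at 0 h to 1.397 at 9 h in WT. Just outside it lay Clec16a (199539 bases), which went from 71.3 to 7.45 CPM. Exons of 145 members share bases with those of another gene. Counting ignored strand per the file headers, so there the reads of a gene and of an antisense partner cannot be told apart. Of the genes named below this holds for Fut8, Nedd4l, Mad1l1, Arhgap15, Gphn, Bri3, Iqgap2, Zmiz1, Fhit, Kcnip4, Snhg14, March1, Camk4, Cubn, Gabrb1, Atxn7l1, Pcca and Umad1.

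Together the long genes took 2.13% of gene reads in WT at 0 h, 0.743% at 3 h, 0.436% at 6 h and 0.3502% at 9 h. KO1 went from 2.101% through 0.746% and 0.416% to 0.351%, and KO2 from 2.18% through 0.753% and 0.425% to 0.341%. The SD between the 2 libraries of a group was at most 0.00436 percentage points, and libraries of consecutive times did not overlap within a genotype. The share at 9 h was 6.08-fold below that at 0 h in WT, 5.98-fold below in KO1 and 6.39-fold below in KO2. Fewer cells holding an mRNA and less of it per cell cannot be told apart in bulk RNA.

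Between 0 h and 9 h in WT, 304 of the 349 long genes fell (87.1%), where 38.5% of all genes tested fell. Another 35 rose (10.03%), where 43.2% of all genes tested rose, and 10 were not called. A call is an adjusted p under 0.05 in edgeR's quasi-likelihood test, with Benjamini-Hochberg adjustment over the 16167 genes tested, which include all 349. The median log2 change was -3.04 among long genes, an 8.24-fold fall, against 0.02 among shorter genes and 0.13 among all genes tested. Of the 819 expressed genes of 100 to 200 kb, 85.7% fell (median -2.02), and of the 1598 of 50 to 100 kb 79.0% fell (median -1.14). The share that fell was thus not particular to the long genes, whose median fall was deeper. In KO1, 304 long genes fell against a background of 38.3% and 34 rose against 42.2%, with a median of -2.98. In KO2, 306 fell against 38.8% and 30 rose against 42.0%, with a median of -3.08. Of the 349, 298 fell in all 3 genotypes and 28 rose in all 3, against 33.5% and 35.2% of genes tested.

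**Figure D1:**
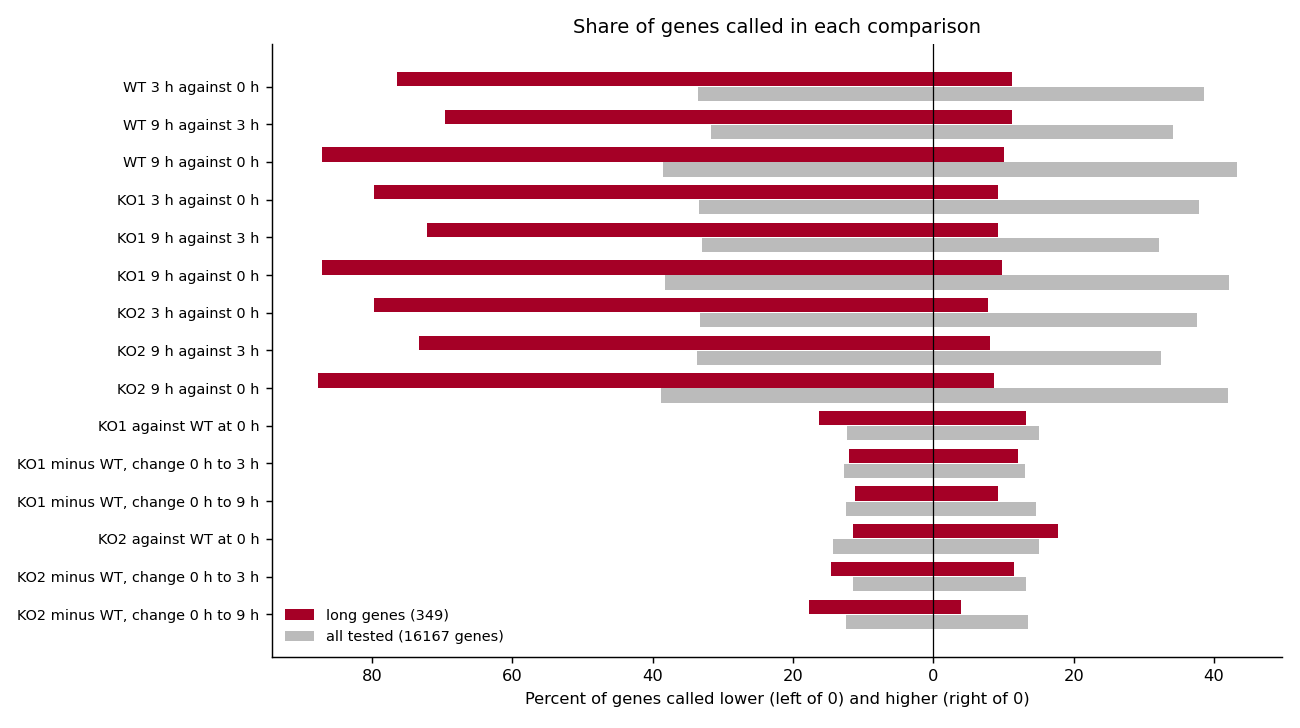
Percent of genes called lower (left of 0) and higher (right of 0) in each of the 15 comparisons, for the 349 long genes and for all 16167 genes tested. Between 0 h and 9 h in WT the long genes reach 87.1% lower against 38.5% of all genes tested, and in the genotype comparisons at the bottom no bar of the long genes passes 17.8%.

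From 0 h to 3 h in WT, 267 long genes fell and 39 rose, where 33.5% of genes tested fell and 38.6% rose. Their median log2 change was -1.39, against 0.09 in shorter genes. Of the 819 expressed genes of 100 to 200 kb, 81.7% fell by 3 h in WT, with a median of -1.38, close to that of the long genes. In KO1, 278 long genes fell (background 33.4%) and 32 rose (background 37.9%), with a median of -1.44. In KO2, 278 fell (background 33.3%) and 27 rose (background 37.6%), with a median of -1.40. The fall went on after 3 h. From 3 h to 9 h in WT, 243 long genes fell and 39 rose, against 31.6% and 34.2% of genes tested, and the median was -1.09 against 0.02 in shorter genes. Over the same hours 252 fell in KO1 (background 33.0%) and 32 rose (background 32.1%), with a median of -1.19. In KO2 256 fell (background 33.7%) and 28 rose (background 32.5%), with a median of -1.28. Of the 267 that had fallen by 3 h in WT, 197 fell again to 9 h (56.5% of the 349, against 13.9% of genes tested), and 46 members fell after 3 h with no called fall before it (13.2% against 17.8%). These counts share their 3 h libraries.

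The time of the fall moved with span. In WT the median log2 change in the first 3 h, on the scale of log2(CPM + 0.1), was 0.60 for genes under 10 kb, 0.05 for 10 to 50 kb, -0.84 for 50 to 100 kb, -1.38 for 100 to 200 kb and -1.60 for the 201 members of 200 to 300 kb. It was less deep beyond that, at -1.15 for the 104 members of 300 to 500 kb and -0.95 for the 44 of 500 kb or more. From 6 h to 9 h the order of the long classes was the other way, with -0.09 for genes of 100 to 200 kb, -0.22 for members of 200 to 300 kb, -0.50 for 300 to 500 kb and -0.68 for 500 kb or more. In KO1 the 3 member classes gave -1.61, -1.29 and -0.89 in the first window and -0.19, -0.47 and -0.54 in the last. In KO2 they gave -1.61, -1.13 and -0.96 in the first window and -0.30, -0.42 and -0.70 in the last. By 9 h the 3 classes had reached nearly the same depth in WT, with median log2 changes from 0 h of -3.07, -2.96 and -2.99 on the TMM scale. Across the 349 members, Spearman's rho between span and log2 change in WT was 0.149 at 3 h, -0.177 from 3 h to 9 h and -0.0639 at 9 h. Other features had larger values among members. For mean CPM rho was -0.248, -0.263 and -0.287. For the length of the longest coding transcript, over 342 members, it was -0.258, 0.254 and -0.0223. Across 12920 expressed genes the rho of span was -0.526 at 3 h and -0.496 at 9 h, where genes share libraries and depth and are not independent. No test was made of these class differences.

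**Figure D2:**
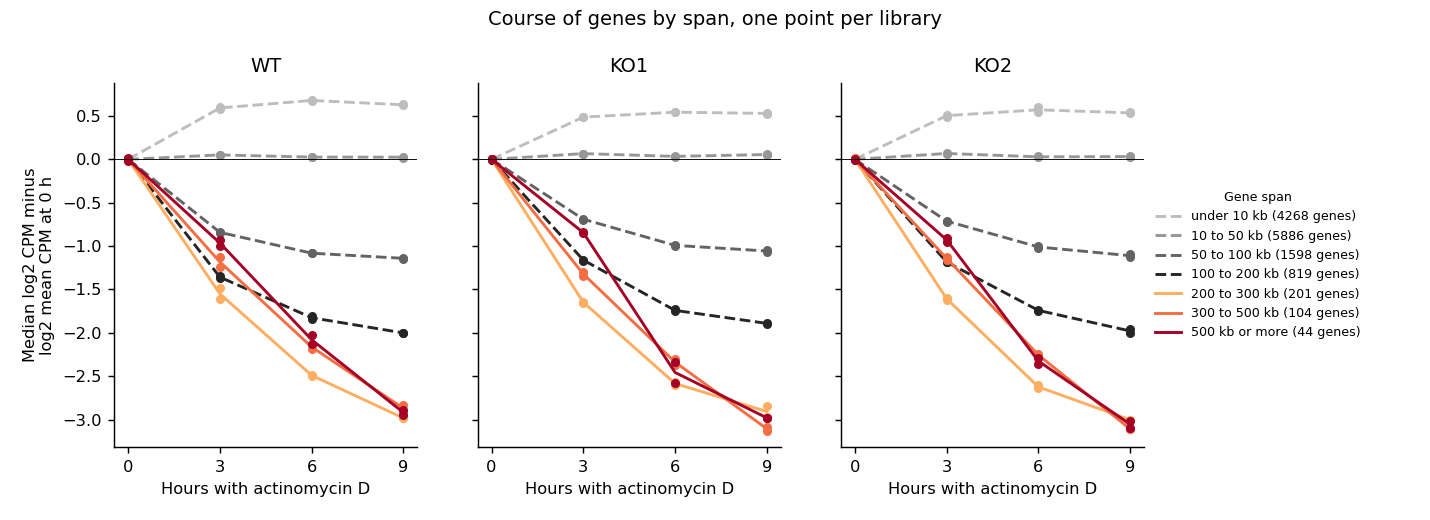
Median log2 CPM of the genes in 7 span classes relative to 0 h, against hours with actinomycin D, with 1 point per library and lines through the mean of 2 libraries. In each genotype the 3 classes of long genes (solid lines) lie below the 4 classes of shorter genes (dashed lines) at 9 h, and genes under 10 kb lie above 0.

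**Figure D3:**
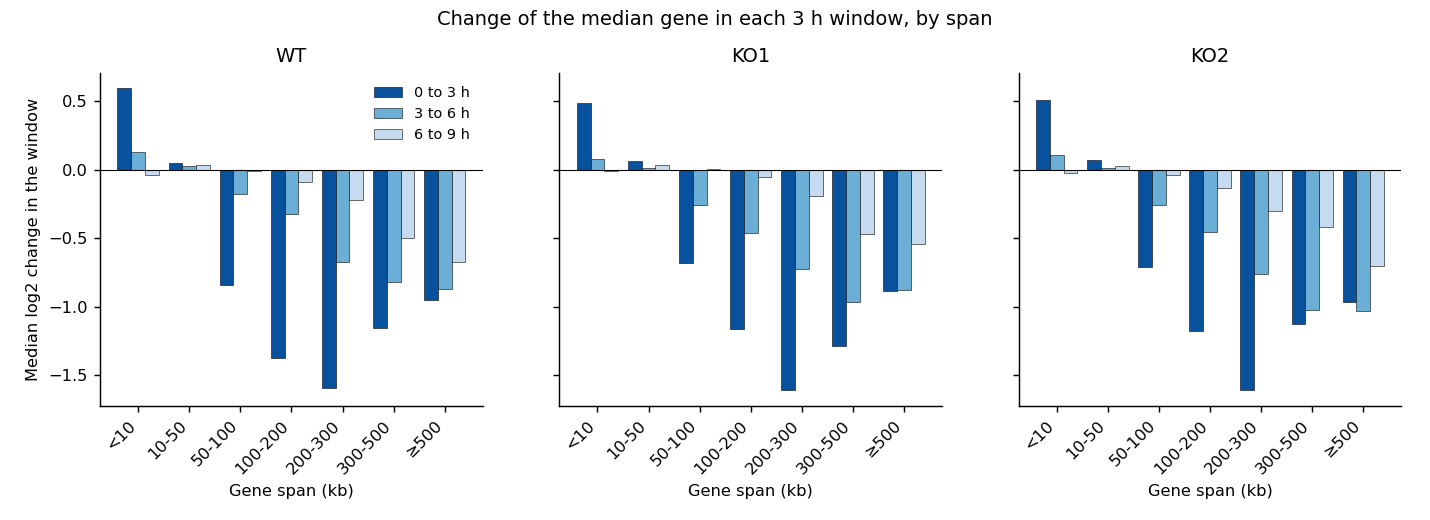
Median log2 change of the genes in each span class (kb) in the windows 0 to 3 h, 3 to 6 h and 6 to 9 h, on log2(CPM + 0.1). In WT the first window goes from -1.60 at 200 to 300 kb to -0.95 at 500 kb or more, while the last goes from -0.22 to -0.68.

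Long genes also have longer exons in sum, so the course was described within classes of exon length. Among genes with under 4 kb of exon, the 34 long members had a median log2 change of -0.12 at 3 h in WT and -2.41 at 9 h, against 0.38 at 9 h in shorter genes. From 3 h to 9 h these members had a median of -1.82. Among genes with 12 kb of exon or more, members had -3.06 at 9 h against -1.36 in shorter genes. In the classes of 4 to 8 kb and 8 to 12 kb, members had 9 h medians of -3.14 and -2.96 against -0.17 and -0.81. By exon number, members under 10 blocks stood at -2.44 against 0.43, and members of 40 blocks or more at -3.18 against -1.45. The 204 members that share no exon base with another gene had a 9 h median of -3.12. A long gene can also make a short transcript. The 143 members whose shortest annotated coding transcript spans under 50 kb had a 9 h median of -2.98, against 0.04 in shorter genes. The 62 members of 50 to 100 kb by that measure had -2.67 against -1.37. The 39 of 100 to 200 kb had -2.91 against -2.27. The 98 members in which that transcript spans 200 kb or more had -3.42.

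The calls differed with level, in long and in shorter genes. All 47 members at a mean of 50 CPM or more fell between 0 h and 9 h in WT, where 52.3% of shorter genes of that level did. Of the 110 members between 20 and 50 CPM 108 fell, where 51.3% of shorter genes did. Of the 68 between 1 and 5 CPM, 33 fell and 27 rose (48.5% and 39.7%), where 19.98% of shorter genes fell and 55.6% rose, and the medians were -0.48 and 0.90. A gene under 1 CPM at 0 h can be a member only through a higher level later. All 19 such members are among the 35 that rose in WT, so they give no support for a rise. With a limit of 5 CPM in place of 1, 2.85% of long genes rose. That limit uses the later levels too.

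**Figure D4:**
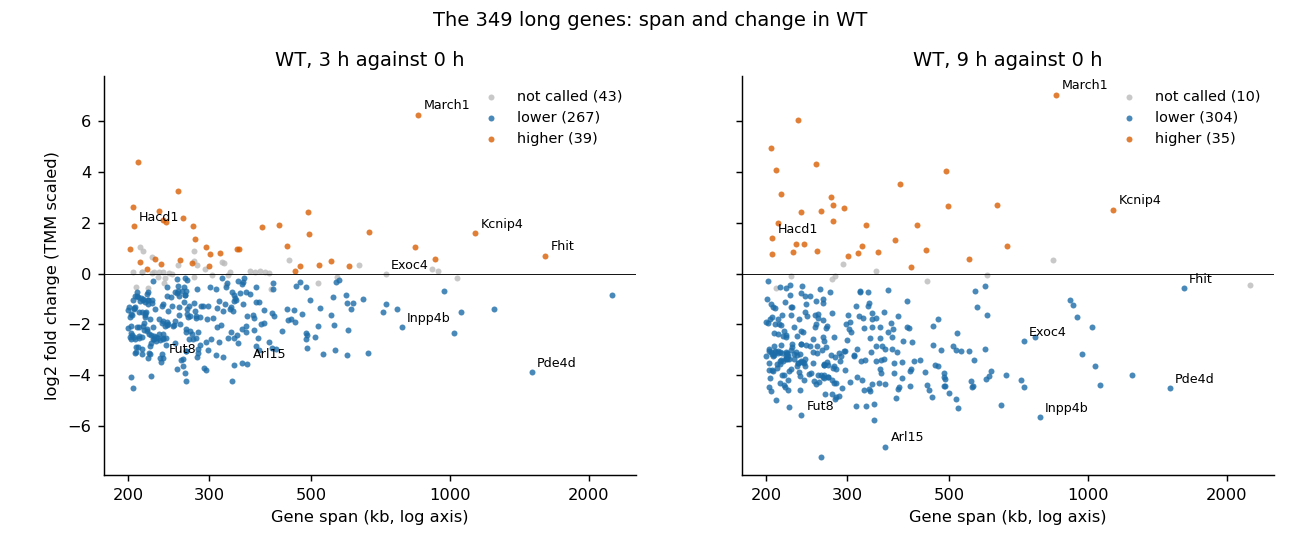
Log2 fold change (TMM scaled) of each of the 349 long genes against its span in kb (log axis), in WT at 3 h (left) and 9 h (right) against 0 h, coloured by call. At 3 h 267 genes are called lower and 39 higher, and at 9 h 304 and 35, with Arl15 and Inpp4b among the lowest labelled points and Kcnip4 and March1 above 0.

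Fut8 is the enzyme that adds core fucose to N-glycans (chr12:77284899-77523112, plus strand, GRCm39). Its 2 WT libraries held 495 and 476 CPM at 0 h, 47.2 and 49.2 at 3 h, 11.7 and 15.7 at 6 h and 10.03 and 10.2 at 9 h. KO1 held 468 and 482 CPM at 0 h and 10.6 and 11.3 at 9 h, and KO2 481 and 467 at 0 h and 10.2 and 10.7 at 9 h. In each genotype the 9 h libraries lay far below those of 0 h, without overlap. The log2 change to 9 h in WT was -5.59 ± 0.05 (SE), a 48.1-fold fall in CPM, with an adjusted p of 9.67e-100 in edgeR's test.

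Arl15, a small ARF-like GTPase (chr13:113931041-114293997, plus strand), had the deepest fall among members of 5 CPM or more. WT held 30.6 and 30.3 CPM at 0 h, 2.94 and 2.24 at 3 h, 0.321 and 0.488 at 6 h and 0.233 and 0.2904 at 9 h. The KO lines held 27.6 to 28.9 CPM at 0 h and 0.233 to 0.849 CPM at 9 h, so all 6 libraries were under 1 CPM at 9 h. The log2 change in WT was -6.82 ± 0.25, with an adjusted p of 2.98e-47 in edgeR's test.

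Inpp4b, a phosphatase of inositol lipids, spans 785358 bases (chr8:82069185-82854543, plus strand). WT held 259.6 and 261 CPM at 0 h, 59.6 and 61.1 at 3 h, 8.91 and 7.98 at 6 h and 5.77 and 4.53 at 9 h. KO1 went from 217 and 218 CPM at 0 h to 3.44 and 3.06 at 9 h, and KO2 from 192 and 179.7 to 2.58 and 3.95. By 3 h Inpp4b was 4.31-fold down in WT and Fut8 10.1-fold, and by 9 h Inpp4b was 50.5-fold down. Both KO lines lay below WT at 0 h, by -0.26 ± 0.04 and -0.48 ± 0.04 on the log2 scale (adjusted p = 8.36e-07 and 4.36e-17 in edgeR's test).

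Regulators of several kinds followed. Arhgap15, which switches off Rac, held 93.9 and 96.5 CPM in WT at 0 h, 48.98 and 46.6 at 3 h and 2.27 and 2.904 at 9 h. Mad1l1, a spindle checkpoint protein, went from 36.3 and 37.95 CPM at 0 h to 0.933 and 1.05 at 9 h, and Supt3, a subunit of the SAGA co-activator, from 28.5 and 33.9 to 0.875 and 0.871. Nedd4l, a ubiquitin ligase, went from 113 and 113 CPM to 2.86 and 3.14. For each of these 4 genes the 9 h libraries of WT lay below those of 0 h without overlap. The same held for Sfmbt2, a repressor with MBT domains, which went from 71.6 and 71.8 to 2.22 and 1.57 CPM, and for Atrnl1, a membrane protein like attractin, which went from 104.6 and 109.7 to 1.92 and 3.54 CPM. The log2 changes were -5.20 ± 0.11 for Arhgap15, -5.22 ± 0.18 for Mad1l1, -5.15 ± 0.18 for Supt3, -5.24 ± 0.10 for Nedd4l, -5.24 ± 0.13 for Sfmbt2 and -5.29 ± 0.11 for Atrnl1.

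By role, most long members of each list given here fell between 0 h and 9 h in WT, beside 87.1% of the long genes and 38.5% of all genes tested. All 21 transcription factors and co-regulators fell (median log2 change -3.43), as did all 26 genes of vesicle traffic and membrane transport (-3.62), all 14 of chromatin and DNA repair (-3.05) and all 10 of RNA binding (-3.01). Of 19 kinases and phosphatases 17 fell and 1 rose (-3.73), and of 17 metabolic genes 16 fell and 1 rose (-3.61). All 5 genes of the ubiquitin list (-3.66) and all 4 of adhesion and surface receptors (-2.64) fell. The median over the 349 was -3.04. Gphn, the gephyrin scaffold, went from 127 and 134 CPM at 0 h to 5.01 and 4.01 at 9 h in WT, Elp4, a subunit of Elongator, from 28.4 and 30.03 to 1.52 and 1.86, and Ldlrad3, a surface protein with LDL-receptor domains, from 19.1 and 19.98 to 1.34 and 1.28. None of these 3 had overlapping libraries at 0 h and 9 h.

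The same lists with their short genes, and still with the long members, had medians nearer to 0. Beside them, 38.5% of all genes tested fell and 43.2% rose. The lists were picked by hand from general knowledge, so they do not stand for all genes of their functions. Of 52 transcription factors and co-regulators tested, 50 fell and 1 rose (median -2.60), and of 80 vesicle genes 75 fell and 2 rose (-2.64). The counts of lower and higher were 49 and 1 of 52 for chromatin (-2.35) and 66 and 2 of 71 for kinases and phosphatases (-2.33). They were 53 and 2 of 55 for ubiquitin (-2.19), 43 and 5 of 50 for RNA binding (-2.02), 58 and 10 of 70 for metabolism (-1.90) and 32 and 9 of 44 for adhesion (-1.44). Elongation factors and topoisomerases counted 28 lower and 14 higher of 45 tested (-0.69). Their 1 long gene is Mllt3, a reader protein of the super elongation complex, with 5.56 and 5.38 CPM in WT at 0 h, 0.547 and 0.321 at 3 h and 1 read in both libraries together at 9 h.

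Another list held genes of common fragile sites and other very large genes. Of its 9 long members 4 fell and 2 rose by 3 h in WT (median log2 change -0.38), beside 33.5% and 38.6% of all genes tested and a median of -0.95 in members of 500 kb or more. By 9 h 8 of the 9 had fallen (-2.66), beside 38.5% of all genes tested. No test set the list against other long genes. With short genes, 8 of 11 tested fell by 9 h and 1 rose (-1.24). Fhit, a dinucleotide hydrolase whose gene spans 1611943 bases, held 8.47 and 10.7 CPM in WT at 0 h, 15.2 and 16.2 at 3 h, 13.7 and 13.2 at 6 h and 5.77 and 7.15 at 9 h. Its 3 h libraries lay above both 0 h libraries, and its 9 h libraries below them. The rise to 3 h was 0.71 ± 0.13 in WT, 0.53 ± 0.12 in KO1 and 0.35 ± 0.12 in KO2 (adjusted p = 4.36e-07, 3.8e-05 and 0.00555 in edgeR's test). Wwox, an oxidoreductase of 913052 bases, held 10.3 and 10.8 CPM at 0 h, 10.9 and 12.7 at 3 h and 4.78 and 5.402 at 9 h, a log2 change of -1.05 ± 0.16 by 9 h. Pde4d, a cyclic AMP phosphodiesterase of 1503513 bases that is not on the list, was low by 3 h, with 19.8 and 21.6 CPM at 0 h, 1.44 and 1.35 at 3 h and 0.525 and 1.28 at 9 h. The longest member, Cntnap2, a neurexin-family protein on the list, held 1.36 to 2.61 CPM at 0 h and 0.875 to 2.03 at 9 h in WT, with overlapping libraries and no call.

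Some abundant members held their level for 3 h and then fell. Snd1, a Tudor-domain nuclease-like protein and the member with the highest mean level, held 361 and 350.2 CPM in WT at 0 h, 377 and 382 at 3 h, 181 and 182 at 6 h and 47.7 and 52.3 at 9 h. Exoc4, an exocyst subunit of 724894 bases, held 185 and 184 CPM at 0 h, 182 and 178 at 3 h, 86.9 and 91.4 at 6 h and 28.2 and 30.03 at 9 h. For both genes the 6 h and 9 h libraries lay below all earlier ones. The change of Exoc4 to 3 h was -0.03 ± 0.04 and was not called, and that from 3 h to 9 h was -2.63 ± 0.05 (adjusted p = 8.13e-72 in edgeR's test). Taken after the values were seen as a log2 change above -0.2 at 3 h and below -2 at 9 h, 14 members in WT had this course, 12 in KO1 and 15 in KO2, or 4.01%, 3.44% and 4.298% of the long genes. Of all genes tested 0.377%, 0.396% and 0.513% did, and 7 members were common to all 3 genotypes. In WT they include Gmds, which makes a precursor of GDP-fucose, Adk, the adenosine kinase, Pcca, a subunit of propionyl-CoA carboxylase, and Stx8, a SNARE. Of the 14, 6 had under 4 kb of exon and 3 spanned 500 kb or more. Their mean levels ran from 1.02 to 218 CPM, so not all were abundant. The lowest of them changed by -2.86 in WT but by -0.42 in KO1 at 9 h. At the other end, 37 members (10.6%) were already below -3 at 3 h in WT, against 2.04% of genes tested.

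Some members fell and came back in part. In WT, 22 members were lower at 3 h than at 0 h and then higher at 9 h than at 3 h, in KO1 18 and in KO2 12. These are 6.304%, 5.16% and 3.44% of the long genes, against 10.3%, 9.09% and 8.96% of all genes tested. The 7 found in all 3 genotypes were Atxn7l1, Filip1l, Rap1gap2, Rere, Ssh2, Tcf4 and Zmiz1, picked after their values were seen. Filip1l, a filamin-interacting protein, held 113 and 119 CPM in WT at 0 h, 26.8 and 24.7 at 3 h, 39.9 and 38.5 at 6 h and 50.4 and 55.9 at 9 h. Its 9 h libraries lay between those of 3 h and 0 h, and the change from 3 h to 9 h was 1.05 ± 0.07 (adjusted p = 2.41e-26 in edgeR's test). Rere, a co-repressor, held 101 and 104.7 CPM at 0 h, 17.4 and 17.9 at 3 h and 32.8 and 36.8 at 9 h. Tcf4, an E-protein transcription factor, held 90.8 and 91.03 CPM, then 16.8 and 16.8, and 25.9 and 27.4 at 9 h. Filip1l, Rere and Tcf4 were thus all still below their 0 h libraries at 9 h. Macf1, a giant linker of actin and microtubules, held 273 and 264 CPM at 0 h, 107 and 106 at 3 h and 121 and 122 at 9 h in WT. Fam107b, an actin-associated protein, held 404 and 398 CPM, then 94.8 and 93.2, and 47.8 and 48.8 at 9 h, with no recovery.

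Kcnip4 had the largest rise among members of 5 CPM or more. It encodes a calcium-binding partner of potassium channels and spans 1135405 bases (chr5:48546844-49682249, minus strand). WT held 2.19 and 1.66 CPM at 0 h, 5.68 and 5.84 at 3 h, 10.5 and 8.78 at 6 h and 11.02 and 11.1 at 9 h. KO1 went from 1.06 and 1.69 CPM at 0 h to 8.099 and 9.85 at 9 h, and KO2 from 2.19 and 2.56 to 9.33 and 9.204. In each genotype both 9 h libraries lay above both 0 h libraries, with log2 changes of 2.52 ± 0.19 in WT, 2.69 ± 0.22 in KO1 and 1.96 ± 0.19 in KO2 (adjusted p = 3.82e-23, 1.63e-21 and 3.73e-17 in edgeR's test). All its 0 h libraries lay under 5 CPM, so Kcnip4 passed that limit only through its later levels. The p-values do not allow for that choice, and Kcnip4 gives no support for a rise of long genes.

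Hacd1, a dehydratase in the synthesis of very-long-chain fatty acids (chr2:13855093-14060946, minus strand), rose early. WT held 6.45 and 7.15 CPM at 0 h, 24.6 and 24.9 at 3 h, 23.3 and 24.98 at 6 h and 17.2 and 18.6 at 9 h. Pdzd2, a scaffold with PDZ domains, rose late, from 6.45 and 7.21 CPM at 0 h through 5.06 and 4.43 at 3 h to 18.8 and 15.5 at 9 h. The 9 h libraries of both genes lay above those of 0 h. The remaining risers of 5 CPM or more, apart from 1 predicted gene, changed by 1.09 ± 0.19 for Megf11, a receptor with EGF repeats, 1.07 ± 0.18 for Snhg14, a host RNA of small nucleolar RNAs, 0.58 ± 0.17 for Kirrel3, an adhesion protein, and 0.27 ± 0.10 for Oxr1, an oxidation-resistance protein. With spike-in totals as library sizes, Kirrel3 and Oxr1 turned to -0.25 and -0.56, and Megf11 and Snhg14 were no longer called (0.25 and 0.24). Without WT 0 h replicate 1 the call of Oxr1 was lost (0.20).

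The other 27 risers had means under 5 CPM. March1, a membrane-bound ubiquitin ligase of 853737 bases, held 0.0592 and 0 CPM in WT at 0 h, 2.94 and 2.76 at 3 h and 5.77 and 4.07 at 9 h. Camk4, a calcium- and calmodulin-dependent kinase, went from 0.414 and 0.355 CPM at 0 h to 8.28 and 7.38 at 9 h, and Gabrb1, a GABA receptor subunit, from 0.474 and 0.355 to 6.296 and 7.55. Celf4, an RNA-binding protein of neurons, went from 0.414 and 0.6502 to 4.02 and 4.71 CPM, and Cubn, an uptake receptor of gut and kidney, from 0.474 and 0.473 to 4.198 and 4.298. These 5 were chosen after their values were seen, and each is a member only through its later level.

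**Figure D5:**
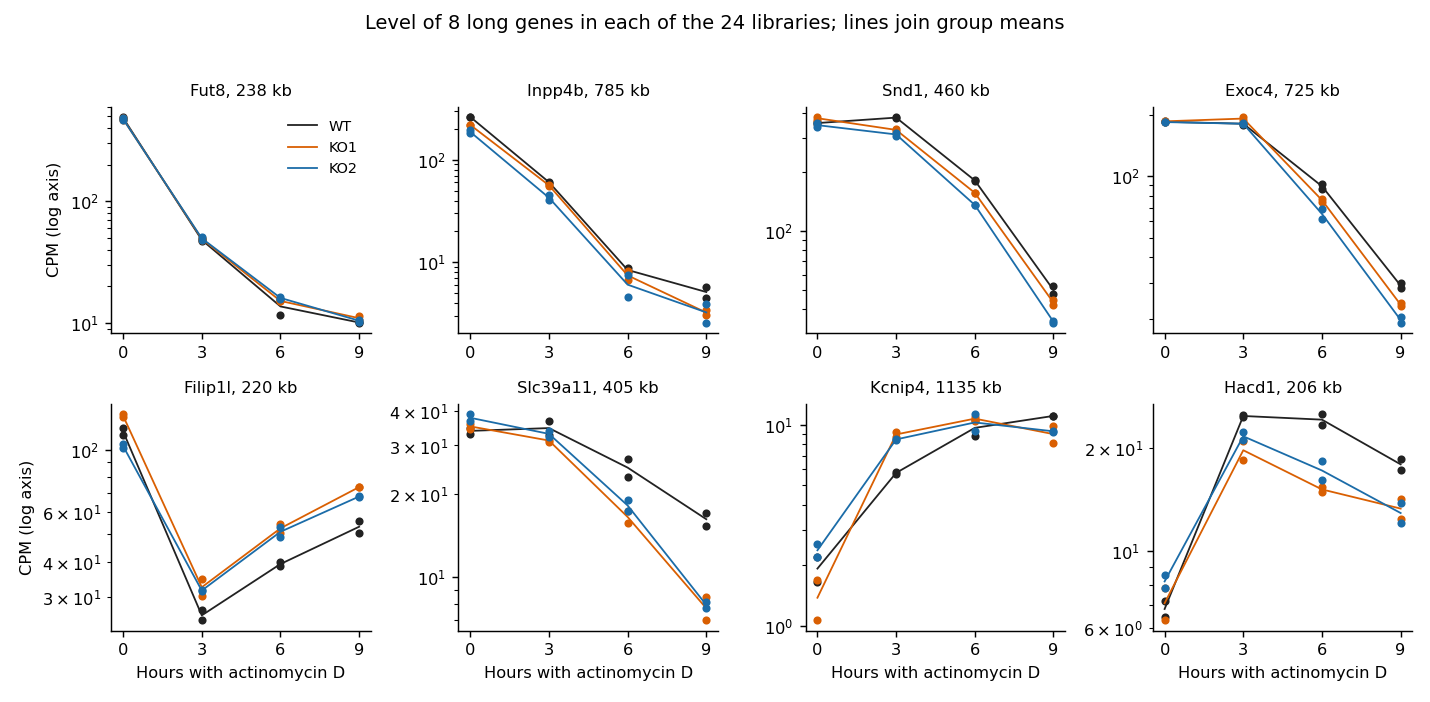
CPM (log axis) of 8 long genes in each of the 24 libraries against hours with actinomycin D, where points are libraries and lines join group means of 2. Fut8 and Inpp4b fall from the start, Snd1 and Exoc4 fall after 3 h, Filip1l falls and recovers in part, Slc39a11 ends lower in the KO lines (6.96 to 8.45 CPM) than in WT (17.1 and 15.3 CPM), and Kcnip4 and Hacd1 rise.

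At 0 h the shares of long genes that differed between KO lines and WT lay near those of all genes tested. KO1 had 57 lower (16.3%) and 46 higher (13.2%), against 12.3% and 15% of genes tested. KO2 had 40 lower (11.5%) and 62 higher (17.8%), against 14.3% and 15.1%. Median log2 differences of the members were -0.02 and 0.01. The lower share in KO1 was 10.3% and 10.03% without KO1 0 h replicate 1 or 2 and 9.46% without WT 0 h replicate 2, and the higher share was 8.596% without WT 0 h replicate 1. With spike-in totals as library sizes, 99.4% and 99.7% of long genes were lower in KO1 and KO2. Both KO lines are compared with the same WT libraries.

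Syne1 and Esr1, neighbours on chromosome 10, were the members of 5 CPM or more that ranked highest among those higher in both KO lines. Syne1 encodes a giant nesprin that ties the nucleus to the cytoskeleton (chr10:4970917-5501482, minus strand). It held 15.6 and 14.1 CPM in WT at 0 h, 41.4 and 42.3 for KO1 and 41.9 and 47.7 for KO2. All 4 KO libraries lay above both WT libraries, by 1.495 ± 0.11 and 1.59 ± 0.10 on the log2 scale (adjusted p = 2.19e-23 and 7.7e-26 in edgeR's test). Esr1, the estrogen receptor alpha (chr10:4561593-4955614, plus strand), held 9.18 and 7.98 CPM in WT, 16.8 and 17.8 for KO1 and 16.01 and 17.3 for KO2. Sox6, an HMG-box transcription factor, held 26.3 and 26.8 CPM in WT, 43.2 and 43.03 for KO1 and 59.7 and 57.1 for KO2. Bri3, a small membrane protein, held 21.7 and 22.3 CPM in WT, 32.3 and 33.6 for KO1 and 40.7 and 37.95 for KO2. For none of these 4 did KO and WT libraries overlap at 0 h, and with spike-in totals as library sizes all 4 differences turned negative.

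Nhsl2, a protein of the Nance-Horan family, ranked first among those lower in both KO lines. It held 13.4 and 11.6 CPM in WT at 0 h, 5.24 and 3.07 for KO1 and 6.26 and 5.36 for KO2, differences of -1.59 ± 0.17 and -1.10 ± 0.16 (adjusted p = 1.6e-13 and 7.86e-09 in edgeR's test). Bbs9, a subunit of the ciliary BBSome, held 22.6 and 21.5 CPM in WT, 13.6 and 13.9 for KO1 and 15.5 and 15.6 for KO2. Socs6, of the suppressors of cytokine signalling, held 97.3 and 99.4 CPM in WT, 72.8 and 71.6 for KO1 and 67.7 and 66.5 for KO2. Each KO library of these 3 genes lay below both WT libraries. Wwox also did, with 7.23 and 7.59 CPM in KO1 and 9.13 and 6.48 in KO2, differences of -0.51 ± 0.16 and -0.43 ± 0.15 (adjusted p = 0.00876 and 0.0246 in edgeR's test). The KO1 call of Wwox was lost without KO1 0 h replicate 1 (-0.47) or WT 0 h replicate 2 (-0.47). The KO2 call was lost without KO2 0 h replicate 2 (-0.21) or without WT 0 h replicate 1 or 2 (-0.46 and -0.40), and in DESeq2 (-0.44).

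The change after the drug was then compared between genotypes with an interaction term. From 0 h to 3 h, KO1 minus WT gave 42 lower and 42 higher long genes, against 12.7% and 13.1% of genes tested. KO2 minus WT gave 51 lower and 40 higher, against 11.4% and 13.3%. From 0 h to 9 h, KO1 minus WT gave 39 lower (11.2%) and 32 higher (9.17%), against 12.5% and 14.7%, with a median of -0.06. KO2 minus WT gave 62 lower (17.8%) and 14 higher (4.01%), against 12.4% and 13.5%, with a median of -0.11. With spike-in totals as library sizes, 71.9% of long genes were called higher in KO1 minus WT and 0.573% in KO2 minus WT. The 4.01% higher in KO2 minus WT was 6.88% without TMM, 11.99% with a span limit of 100000 bases and 0.676% with 300000.

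Slc39a11, a zinc transporter of the ZIP family (chr11:113135679-113540905, minus strand), ranked first among those that fell more in both KO lines. It held 33.2 and 34.6 CPM in WT at 0 h and 17.1 and 15.3 at 9 h. KO1 held 34.4 and 35.9 CPM at 0 h and 8.45 and 6.96 at 9 h, and KO2 36.7 and 38.9 at 0 h and 7.74 and 8.11 at 9 h. At 9 h every KO library lay below both WT libraries, with differences of change of -1.13 ± 0.15 in KO1 and -1.19 ± 0.15 in KO2 (adjusted p = 4.59e-10 and 3.83e-11 in edgeR's test). Iqgap2, a scaffold for Rac and Cdc42, fell from 61.9 and 57.99 to 11.02 and 10.2 CPM in WT, from 55.9 and 57.4 to 4.72 and 5.09 in KO1 and from 67.6 and 63.6 to 5.77 and 6.19 in KO2. Its 9 h libraries did not overlap between KO lines and WT, and its differences of change were -1.03 ± 0.16 and -0.96 ± 0.15. Sox6 fell from its higher start in the KO lines to 15.1 to 18.2 CPM, beside 15.97 and 17.3 in WT. Bri3 fell from its higher start in the KO lines to 13.3 to 14.8 CPM, beside 16.96 and 19.2 in WT. With spike-in totals as library sizes, the calls in KO1 of Slc39a11 (-0.21), Iqgap2 (-0.12) and Bri3 (-0.09) were lost, and Sox6 turned to 0.0746.

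In the other direction, Ralgps1, an exchange factor for Ral, changed by -3.49 ± 0.18 in WT, -2.60 ± 0.18 in KO1 and -2.64 ± 0.18 in KO2. Its WT libraries held 20.1 and 20.04 CPM at 0 h and 1.69 and 1.86 at 9 h, and those of the KO lines 13.8 to 15.8 at 0 h and 2.26 to 2.62 at 9 h. Zmiz1, a co-activator of the PIAS kind, went from 189.5 and 184 to 35.3 and 38.2 CPM in WT, from 161 and 164 to 44.3 and 39.3 in KO1 and from 185 and 177 to 42.99 and 47.5 in KO2. For Ralgps1 and Zmiz1 every 9 h library of the KO lines lay above both of WT. Socs6, lower in the KO lines at 0 h, ended at 65.2 and 65 CPM in WT, 64.7 and 62.03 for KO1 and 56.4 and 56.5 for KO2. Filip1l ended at 50.4 and 55.9 CPM in WT, 73.7 and 73.4 for KO1 and 68.6 and 67.6 for KO2, with every KO library above both of WT. The Ralgps1 call was lost without WT 9 h replicate 1 in KO1 and KO2 (0.82 and 0.78), without KO1 9 h replicate 1 in KO1 (0.78) and without KO2 0 h or 9 h replicate 2 in KO2 (0.76 and 0.82). The KO1 call of Filip1l was lost without WT 9 h replicate 1 (0.21). With spike-in totals as library sizes, the KO2 calls of Ralgps1, Zmiz1, Socs6 and Filip1l were lost (0.57, 0.04, 0.04 and 0.22).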

How the data were processed

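Counts of reads per gene were deposited for each of 24 libraries, made by the authors with featureCounts 1.6.3 over exons of Ensembl 105 mouse genes (GRCm39) and spike-ins, without strand, on read pairs, per the file headers. The submitters' processing notes also name STAR and DESeq2, with no versions. Gene symbols and transcript models came from GENCODE M21 (GRCm38), and 52081 of 55414 rows had a symbol. The gene rows of a library summed to 15361601 to 17338939 counts, and their number limits the precision of low genes.

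The mean CPM that chose the genes and the CPM of spike-ins were computed over summed gene rows without spike-ins. The CPM of long genes in each library, and those behind the span classes and windows, used library totals adjusted by TMM. Counts were tested in edgeR 4.0.16 (R 4.3.3) with TMM scaling, filterByExpr at a minimum count of 10, 1 coefficient for each of the 12 groups, glmQLFit and glmQLFTest, for 15 contrasts, and Benjamini-Hochberg adjustment over 16167 genes. The script was tested on simulated data. Span classes and windows used medians of log2(CPM + 0.1). Tables and plots were made in Python 3.11.15 with numpy 2.4.6, pandas 2.3.3 and matplotlib 3.10.9.

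Named genes had at least 5 CPM and a symbol that is not a predicted gene. They were the 8 largest called falls and rises from 0 h to 9 h in WT, the 4 largest each way called in both KO lines at 0 h and in the difference of the change to 9 h, the 3 longest, the 3 most abundant, and the largest called fall and rise of each list. The others were named after their values were seen. The result of 1 gene list is not reported here. Members and lists were chosen with earlier results of these data known. The alternatives were other scalings (spike-in totals, total counts, DESeq2 size factors), DESeq2 1.42.0, no low-count filter, only the groups compared, a replicate block, each library left out, and other limits on span, level and shared exons.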

Additional observations from a re-analysis of the deposited data

Results flagged for a closer look

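The change from 0 h to 9 h differed between a KO line and WT for 16 of the long genes that the naming rule gave and for 6 of those named after their values were seen, by the interaction term of edgeR's quasi-likelihood test, with Benjamini-Hochberg adjustment over all genes tested and 2 libraries in each group. Slc39a11, Bri3, Iqgap2, Sox6, Ralgps1, Zmiz1, Socs6 and Filip1l were named through this same test, so their calls here follow from the naming rule. Of all genes tested, 12.5% were called lower and 14.7% higher in KO1 minus WT. In KO2 minus WT these shares were 12.4% and 13.5%. Differences are in log2 and relative to all genes. Lower and higher refer here to the change from 0 h to 9 h and not to the level at 9 h. Lower in both KO lines were Slc39a11 by -1.13 in KO1 and -1.19 in KO2 (adjusted p = 4.59e-10 and 3.83e-11), Bri3 by -0.99 in KO1 and -1.16 in KO2 (adjusted p = 5.13e-09 and 7.54e-12), Iqgap2 by -1.03 in KO1 and -0.96 in KO2 (adjusted p = 5.61e-08 and 1.07e-07). So were Sox6 by -0.83 in KO1 and -1.01 in KO2 (adjusted p = 8.37e-08 and 4.37e-11), Hacd1 by -0.48 in KO1 and -0.74 in KO2 (adjusted p = 0.0457 and 0.00104) and Snd1 by -0.30 in KO1 and -0.50 in KO2 (adjusted p = 3.52e-05 and 5.79e-11).

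Higher in both KO lines were Ralgps1 by 0.89 in KO1 and 0.85 in KO2 (adjusted p = 0.0135 and 0.0196), Socs6 by 0.41 in KO1 and 0.35 in KO2 (adjusted p = 6.02e-06 and 0.000147) and Zmiz1 by 0.39 in KO1 and 0.35 in KO2 (adjusted p = 0.000125 and 0.000455). So were Filip1l by 0.28 in KO1 and 0.53 in KO2 (adjusted p = 0.00153 and 6.04e-09) and Fam107b by 0.16 in KO1 and 0.30 in KO2 (adjusted p = 0.0273 and 1.32e-05). In KO1 minus WT alone, the call was passed by Nedd4l by -0.56 (adjusted p = 0.0435) and, in the higher direction, by Pdzd2 by 1.01 (adjusted p = 4.48e-05), Kirrel3 by 0.85 (adjusted p = 0.00869), Oxr1 by 0.38 (adjusted p = 0.0317) and Macf1 by 0.30 (adjusted p = 4.33e-07). Whether these 5 differ between KO1 and KO2 was not tested. Among the genes named after their values were seen, Exoc4 was lower in both KO lines, by -0.32 in KO1 and -0.55 in KO2 (adjusted p = 0.00109 and 2.57e-08). In KO1 minus WT alone, Ssh2 was higher by 0.21 (adjusted p = 0.0127). In KO2 minus WT alone, Gmds was lower by -0.53 (adjusted p = 0.0196), and Umad1 by 1.61 (adjusted p = 3.87e-06), Celf4 by 2.13 (adjusted p = 0.0185) and Mllt3 by 4.82 (adjusted p = 0.000111) were higher. The WT libraries at 9 h held 1 read of Mllt3 together, so its fitted difference depends on the prior count. Whether these 5 differ between KO1 and KO2 was not tested either. Both KO lines share their WT libraries. Groups of 2 allow no search for a library far from the others.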

How the results depend on the processing

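The medians of log2 change from 0 h to 9 h stayed negative in all 3 genotypes under every alternative run. In KO1 at 0 h, DESeq2 called 10.7% of members lower. With only the groups compared in the fit, 1 call of a named gene was lost. Leaving out 1 library at a time gave 9.46% to 16.6% lower and 8.596% to 13.2% higher there. For the other shares, each library left out kept the value within 1.5 times.

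With spike-in totals as library sizes, the share of members called higher was 4.59% from 0 h to 3 h, 5.16% from 3 h to 9 h and 6.02% from 0 h to 9 h in WT, and 4.298%, 4.01% and 5.16% in KO2. At 0 h it was 0% in KO1 and 0% in KO2, with 99.4% and 99.7% lower. For KO1 minus WT it was 0.573% lower and 20.6% higher to 3 h and 0.287% lower and 71.9% higher to 9 h. For KO2 minus WT it was 4.87% lower and 0.573% higher to 3 h and 0.573% higher to 9 h. Among named genes, the differences at 0 h became -3.58 and -3.94 for Syne1, -4.06 and -4.58 for Esr1, -4.38 and -4.41 for Sox6 and -4.50 and -4.71 for Bri3 in KO1 and KO2, the change of Sox6 to 9 h in KO1 minus WT became 0.0746, and the rises of Kirrel3 and Oxr1 in WT became -0.25 and -0.56. The cause was not tested. The spike-in totals differ between WT and the KO lines as given above. They moved the median of all genes by -5.06 in KO1 and -5.53 in KO2 at 0 h. From 0 h to 9 h they moved it by -0.82 in WT, 0.08 in KO1 and -1.12 in KO2. Over these hours spike-in RNA went from 7.19 to 14.04 CPM in WT, 240.4 to 257.9 in KO1 and 333 to 834 in KO2. Each WT library held only 120 to 257 spike-in reads.

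Without TMM, the higher share was 13.5% from 3 h to 9 h in KO2 and 6.88% in KO2 minus WT to 9 h. With a limit of 5 CPM it was 6.05%, 3.92% and 2.85% from 0 h to 3 h and 2.85%, 2.85% and 2.49% from 0 h to 9 h in WT, KO1 and KO2, and 3.92% from 3 h to 9 h in KO2. With a span limit of 100000 bases it was 18.1%, 14.04% and 13.96% from 3 h to 9 h in WT, KO1 and KO2, 24.4% and 23.5% in KO1 and KO2 minus WT to 3 h, and 17.6% and 11.99% to 9 h. With 300000 bases it was 4.05% in KO1 minus WT to 9 h, and 7.43% and 0.676% in KO2 minus WT to 3 h and 9 h. Total counts moved the median of all genes by 0.12, 0.18 and 0.20 from 0 h to 9 h in WT, KO1 and KO2, and changes are to be read relative to that. The causes of these moves were not tested, apart from the sets of genes, which differ by construction: 281 members at 5 CPM, 1168 at 100000 bases, 148 at 300000 bases. Of 330 genes chosen on the 9 h libraries alone, an alternative chosen after seeing the data, all 30 shares lay within 1.5 times.

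Libraries with the same replicate number shared little: the correlation of their deviations from the group means had a median of 0.010 over 66 pairs of groups, and 4 of the 66 were over 0.1, so the numbers were not taken to pair the samples. With the replicate number as a block, 87.1% of members were lower and 10.03% higher from 0 h to 9 h in WT, 17.5% lower in KO1 at 0 h and 17.8% lower in KO2 minus WT to 9 h, and all 30 shares lay within 1.5 times. Low counts limit what can be said of members near 1 CPM.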
